A study of Mus musculus with 6 samples.

Results

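The MHC class II pathway was followed through 10 genes that carry out its main steps, in B16-F1 melanoma tumours of mice with and without Stat2. The genes were chosen by name, with earlier results of these data known. Every probe set annotated to one of them was taken, which gave 10 probe sets of the 41345 on the array. Of these, 9 name a single gene and stand among the 22180 genes tested. The probe set of Cd74 is also annotated to the microRNA gene Mir5107, which lies within Cd74 in RefSeq, so its signal cannot be assigned to Cd74 alone.

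MHC class II molecules are pairs of an alpha and a beta chain that present peptides from endocytosed proteins to CD4 T cells. Dendritic cells, macrophages and B cells carry them as a rule, and many other cells can be induced to do so by interferon gamma. New chains assemble with the invariant chain CD74, which the protease cathepsin S trims in the endosome, after which the H2-DM heterodimer exchanges the remaining fragment for a peptide. CIITA, which binds no DNA itself, switches class II genes on through factors assembled on a shared promoter module.

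The data are log2 expression values of 6 tumours, 3 from WT hosts and 3 from Stat2 KO hosts, all hosts on a C57BL6 background. In both groups B16-F1 cells, a pigmented melanoma line, were implanted at the dorsal flank, and the tumours were taken at day 20. The genotype is that of the host: the labels do not describe the implanted cells as lacking Stat2, and they do not say which part of the gene was removed. The submitters describe larger tumours in the Stat2 KO hosts, so host genotype and tumour size cannot be told apart here. The labels speak of individual tumours without naming the mice, so the p-values describe the spread among 6 tumours that may not be independent animals.

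Stat2 read 6.45, 6.48 and 6.33 in the Stat2 KO and 6.79, 6.70 and 6.70 in the WT tumours, replicates 1 to 3 in that order here and below, with a limma adjusted p of 0.532. The 10 melanocyte markers averaged 11.2 to 11.6 in Stat2 KO and 11.4 to 11.7 in WT tumours, and all of them read above 6.72. That level is the 95th percentile of 1105 olfactory receptor genes, and their median was 5.21. The family was taken as a background reference, and its silence in these tumours was not checked. Among the class II pathway genes, 3 of 10 had a mean above 6.72 (Cd74, Ctss and Ifi30), while H2-DMb1 and H2-DMb2 lay below 5.21. The sizes of differences among the dimmer genes are uncertain, since a signal near background compresses them.

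The promoters of 5 members are shown because they carry the module through which class II genes are read, or, for Ctss, another element linked to interferon. They are RefSeq sequences of build GRCm38.p6, each with 250 bases before and 50 after the annotated start, 5′ to 3′ on the strand of the gene. H2-Aa lies at chr17:34287774-34288073 (minus strand), H2-Eb1 at chr17:34305617-34305916 (plus), H2-DMb1 at chr17:34152941-34153240 (plus), H2-DMb2 at chr17:34144999-34145298 (plus) and Ctss at chr3:95526536-95526835 (plus). Capitals mark the X box, the Y box, the cAMP response element in H2-Aa and the interferon-stimulated response element in Ctss.
H2-Aa: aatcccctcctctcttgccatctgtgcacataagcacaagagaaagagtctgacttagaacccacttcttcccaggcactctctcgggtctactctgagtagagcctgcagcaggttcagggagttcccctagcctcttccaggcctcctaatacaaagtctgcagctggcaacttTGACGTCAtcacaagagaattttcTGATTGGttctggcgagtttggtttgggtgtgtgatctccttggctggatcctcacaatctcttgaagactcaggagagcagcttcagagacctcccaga
H2-Eb1: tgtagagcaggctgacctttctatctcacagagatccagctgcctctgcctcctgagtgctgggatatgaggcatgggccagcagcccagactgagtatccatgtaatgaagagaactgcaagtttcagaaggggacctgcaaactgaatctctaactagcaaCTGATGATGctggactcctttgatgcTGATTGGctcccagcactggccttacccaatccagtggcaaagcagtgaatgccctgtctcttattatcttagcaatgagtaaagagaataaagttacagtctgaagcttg
H2-DMb1: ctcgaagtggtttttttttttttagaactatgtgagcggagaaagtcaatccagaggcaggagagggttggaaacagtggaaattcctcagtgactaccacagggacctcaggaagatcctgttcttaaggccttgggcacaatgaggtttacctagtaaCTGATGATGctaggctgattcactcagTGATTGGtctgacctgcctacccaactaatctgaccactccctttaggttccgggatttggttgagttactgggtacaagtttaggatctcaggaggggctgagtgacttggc
H2-DMb2: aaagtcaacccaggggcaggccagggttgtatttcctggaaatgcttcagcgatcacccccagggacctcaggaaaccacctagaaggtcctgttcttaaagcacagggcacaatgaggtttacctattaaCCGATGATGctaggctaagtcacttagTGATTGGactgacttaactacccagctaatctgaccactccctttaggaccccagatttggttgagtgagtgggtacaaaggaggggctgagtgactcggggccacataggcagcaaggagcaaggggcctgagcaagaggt
Ctss: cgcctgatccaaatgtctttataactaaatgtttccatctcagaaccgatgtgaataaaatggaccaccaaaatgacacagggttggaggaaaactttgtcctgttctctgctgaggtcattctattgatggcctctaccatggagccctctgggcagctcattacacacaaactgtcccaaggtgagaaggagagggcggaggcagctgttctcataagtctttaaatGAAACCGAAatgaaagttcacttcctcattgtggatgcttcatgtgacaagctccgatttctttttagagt

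The X box was searched as CNGATGATG and the Y box as TGATTGG on both strands. Letters for both were chosen after these promoters had been read. The X box stood in 314 of 32851 promoter windows (0.956%), the Y box in 2568 (7.82%) and both together in 21 (0.0639%). H2-Eb1, H2-DMb1 and H2-DMb2 held both, with 17, 18 and 18 bases between them. Of the other genes with both boxes 11 were measured, 6 of them lower in Stat2 KO hosts, where 46% of all genes were lower. Their median difference was -0.079. Both boxes could stand anywhere in the window and on either strand, so these genes were not shown to carry the class II module. H2-Aa held the Y box at -50 to -44 and, 16 bases upstream of it, a cAMP response element (TGACGTCA, found in 1.79% of windows). It had no match to the X box letters searched, but its cAMP response element stood about as far from the Y box as the X box did elsewhere. Other forms of the X box were not searched, so the missing match does not show that H2-Aa lacks an X box. Ctss held an interferon-stimulated response element (core GAAANNGAA, in 8.56% of windows) at -21 to -13. The gamma-activated site TTCNNNGAA, in 8.30% of windows, was found in H2-DMb2 alone among the members searched. None of the 5 motifs was found in the windows of Ifi30 and H2-DMa, which says only that these letters are not in those bases. The members H2-Ab1, Cd74 and Ciita were not searched. A match is a description of the sequence and not a shown binding site.

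Across the pathway, the alpha and beta chains of I-A, one of the H2-DM beta chains, cathepsin S and the Cd74 probe set were lower in tumours of Stat2 KO hosts, whereas H2-Eb1, H2-DMa, H2-DMb2, Ifi30 and Ciita had groups that overlapped. Differences are on the log2 scale, with the WT mean taken from the Stat2 KO mean. Of the 9 genes with a probe set of their own, 4 were lower at an unadjusted p under 0.05 and 0 were higher, where 3.48% of all genes were lower and 5.34% higher by the same rule. The limma adjusted p was under 0.05 for 0 of the 9, where 0.00902% of all genes (2 of 22180) passed. Those 4 genes, H2-Aa, H2-Ab1, H2-DMb1 and Ctss, also had every Stat2 KO value below every WT value, a separation seen in 5.11% of all genes. For each of these 4 and for the Cd74 probe set the exact two-sided permutation p was 0.1, the smallest that 3 tumours against 3 can give. The median difference of the 9 was -0.25 beside 0.021 over all genes. Since the members were chosen with earlier results of these data known, setting them beside all genes is a description and not a test.

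Direction went with signal level over the whole array. Of genes above the median level 65.3% were lower in Stat2 KO hosts (median difference -0.068), whereas 73.4% of genes at or below it were higher (median 0.11). Of the 9 members, 4 lay above that level, with 2 of them lower, and 5 lay at or below it, with 4 lower. After median centring the share of all genes lower at an unadjusted p under 0.05 was 5.00% and the share higher 2.95%, so the balance between the directions depends on the scaling. The counts of directions in the gene lists below are to be read beside these shares, and no list was tested as a set.

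**Figure D1:**
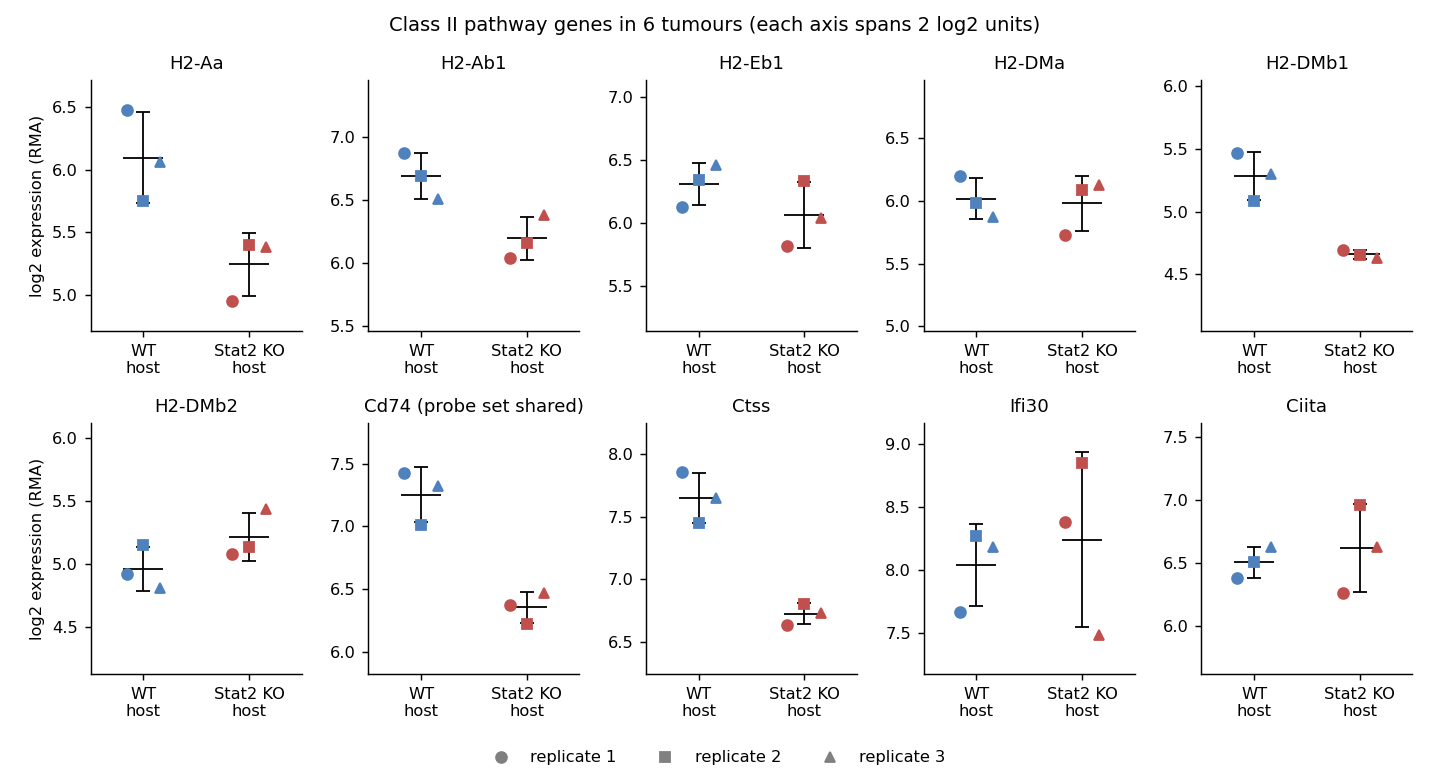
Log2 expression (y axis) of the 10 genes in WT and Stat2 KO host tumours, 1 point per tumour with the mean and SD (n = 3 per group) and an axis of 2 log2 units in each panel. The groups are apart for H2-Aa, H2-Ab1, H2-DMb1, Ctss and the shared Cd74 probe set, and overlap for the other 5.

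H2-Aa encodes the alpha chain of I-A, the class II molecule of C57BL6 mice. It read 4.96, 5.40 and 5.38 in the Stat2 KO and 6.47, 5.75 and 6.06 in the WT tumours. The groups did not overlap, with Stat2 KO replicate 1 the lowest and WT replicate 1 the highest. The difference was -0.85 (SE 0.193, 95% confidence interval -1.27 to -0.43), or 1.80-fold higher in WT hosts, with a limma adjusted p of 0.351. The Stat2 KO mean, 5.25 ± 0.251 (SD, n = 3), was close to the olfactory receptor median of 5.21.

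H2-Ab1, the beta chain that pairs with it, read 6.05, 6.16 and 6.39 in the Stat2 KO and 6.87, 6.69 and 6.51 in the WT tumours. The groups did not overlap, but only 0.12 log2 units lay between Stat2 KO replicate 3 and WT replicate 3. Its difference was -0.49 (SE 0.148, 95% confidence interval -0.82 to -0.17), 1.41-fold higher in WT hosts (limma adjusted p = 0.462).

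H2-Eb1 is the beta chain of I-E, the other class II molecule of the mouse. It read 5.82, 6.33 and 6.04 in the Stat2 KO and 6.13, 6.34 and 6.46 in the WT tumours. The groups overlapped, since Stat2 KO replicate 2 lay above WT replicate 1. The difference of -0.25 (SE 0.161, 95% confidence interval -0.60 to 0.10) had a limma adjusted p of 0.655. Leaving out Stat2 KO replicate 1 gave -0.12, and leaving out replicate 2 gave -0.38. C57BL6 mice are known to lack surface I-E because their alpha chain gene, H2-Ea, is defective. H2-Ea read 6.11 ± 0.382 in Stat2 KO and 5.94 ± 0.335 in WT tumours (n = 3 each), with a difference of 0.17 (SE 0.209).

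The Cd74 probe set, which covers the invariant chain and Mir5107, read 6.37, 6.22 and 6.47 in Stat2 KO hosts. In WT hosts it read 7.42, 7.01 and 7.32. The groups did not overlap, with 0.54 log2 units between the highest Stat2 KO and the lowest WT tumour. Its difference was -0.90 (SE 0.153, 95% confidence interval -1.25 to -0.54), 1.86-fold higher in WT hosts. This value came from a limma fit over all 41345 probe sets, where the adjusted p was 0.732 and the unadjusted p 0.000354. The same fit gave an adjusted p of 0.732 for H2-Aa, H2-Ab1, H2-DMb1 and Ctss as well, so it is not comparable with their values from the gene fit. In that fit 3.00% of probe sets were lower at an unadjusted p under 0.05, and 4.98% had every Stat2 KO value below every WT value. Past the adjusted threshold there were 0 probe sets (0%), while 2766 had an unadjusted p under 0.05.

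Ctss, the gene of cathepsin S, had the smallest limma p of the 9 genes. It read 6.64, 6.81 and 6.73 in the Stat2 KO and 7.85, 7.45 and 7.64 in the WT tumours. The 3 Stat2 KO tumours lay within 0.17 log2 units of each other, and 0.64 separated the highest of them from the lowest WT tumour. The difference was -0.92 (SE 0.143, 95% confidence interval -1.23 to -0.61), 1.89-fold higher in WT hosts, with a limma adjusted p of 0.133. With array weights it passed the threshold (adjusted p = 0.0224, range 0.0224 to 0.732 over the alternatives).

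Ifi30 encodes GILT, a lysosomal thiol reductase that unfolds antigens by opening their disulfide bonds. It read 8.38, 8.85 and 7.48 in the Stat2 KO and 7.67, 8.27 and 8.18 in the WT tumours. The Stat2 KO tumours held both the highest and the lowest of the 6 values. The difference was 0.20 (SE 0.283, 95% confidence interval -0.41 to 0.82, limma adjusted p = 0.830), so the data do not settle its direction. Leaving out Stat2 KO replicate 3 gave 0.58, and leaving out replicate 2 gave -0.10.

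H2-DMa and the neighbouring H2-DMb1 and H2-DMb2 encode the alpha chain and alternative beta chains of H2-DM. H2-DMa read 5.73, 6.09 and 6.13 in the Stat2 KO and 6.20, 5.98 and 5.87 in the WT tumours. Its groups overlapped, with a difference of -0.037 (SE 0.154, 95% confidence interval -0.37 to 0.30, limma adjusted p = 0.948). The sign of this difference turned when Stat2 KO replicate 1 (0.090) or WT replicate 1 (0.053) was left out.

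H2-DMb1 read 4.69, 4.66 and 4.63 in the Stat2 KO and 5.47, 5.09 and 5.30 in the WT tumours. The Stat2 KO tumours lay within 0.065 log2 units of each other and all below the WT tumours. The difference was -0.63 (SE 0.152, 95% confidence interval -0.96 to -0.29, limma adjusted p = 0.390).

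H2-DMb2 read 5.08, 5.14 and 5.43 in the Stat2 KO and 4.92, 5.15 and 4.81 in the WT tumours. Its groups overlapped, with a difference of 0.26 (SE 0.160, 95% confidence interval -0.093 to 0.60, limma adjusted p = 0.648). Leaving out Stat2 KO replicate 3 gave 0.15. The promoters printed above for H2-DMb1 and H2-DMb2 were identical at 208 of 247 aligned bases (84.2%). Probe and transcript sequences were not compared, so whether either probe set hybridizes to both transcripts was not tested. Both genes lie in the range where expression was not shown to exceed background.

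Ciita, the transactivator, read 6.26, 6.96 and 6.63 in the Stat2 KO and 6.38, 6.51 and 6.63 in the WT tumours. Stat2 KO replicates 1 and 2 held the lowest and the highest value, and the WT tumours lay between them. The difference was 0.11 (SE 0.174, 95% confidence interval -0.26 to 0.49, limma adjusted p = 0.845). Leaving out Stat2 KO replicate 1 gave 0.29, and leaving out replicate 2 gave -0.059. The probe set reads all Ciita transcripts it covers together, so the separate promoters from which dendritic cells, B cells and interferon-treated cells are known to start Ciita were not resolved.

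**Figure D2:**
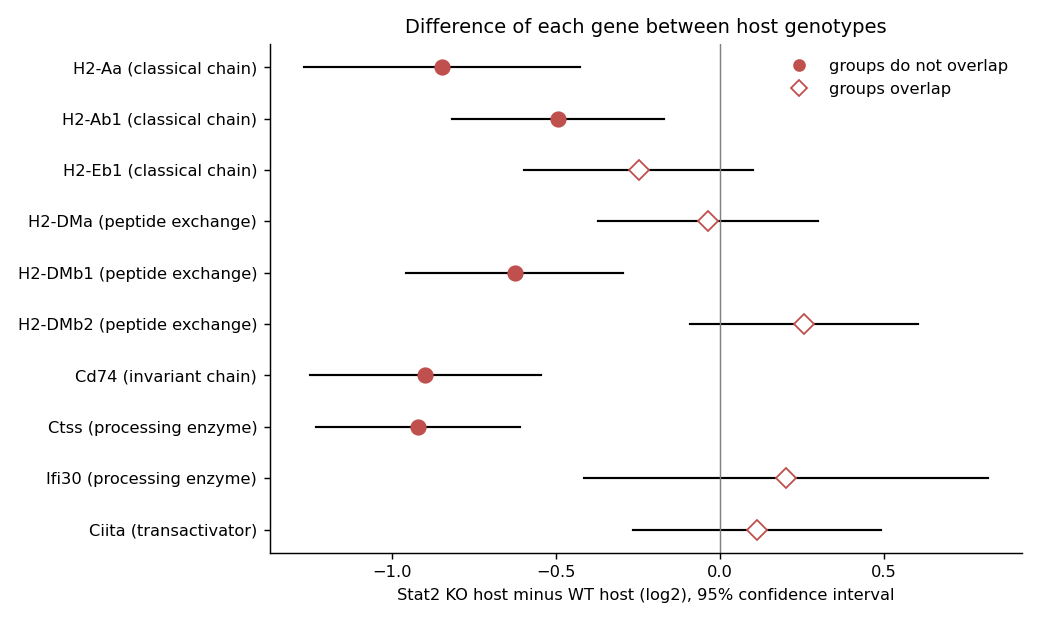
Stat2 KO host minus WT host difference of each gene (x axis, log2) with its 95% confidence interval from limma, 3 tumours per group. Filled circles mark groups that do not overlap. Intervals lie below 0 for H2-Aa, H2-Ab1, H2-DMb1, Cd74 and Ctss, before any adjustment for the number of genes, and include 0 for the other 5.

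Within the groups, WT replicate 1 was the highest WT tumour for 6 of 10 members (H2-Aa, H2-Ab1, H2-DMa, H2-DMb1, Ctss and the Cd74 probe set), as it was for 32.1% of all genes. WT replicate 2 was the lowest WT tumour for 4 of 10 members (H2-Aa, H2-DMb1, Ctss and the Cd74 probe set) and for 26.7% of all genes. Among Stat2 KO tumours replicate 1 was lowest for 7 of 10 members, namely H2-Aa, H2-Ab1, H2-Eb1, H2-DMa, H2-DMb2, Ctss and Ciita, and for 36.4% of all genes. That array also had the lowest median over all genes in its group (6.31, beside 6.44 and 6.38), and its part in the order of the members was not tested. The mean deviation of H2-Aa, H2-Ab1 and H2-Eb1 from their own means was -0.49, -0.14 and -0.17 in Stat2 KO tumours and 0.39, 0.16 and 0.24 in WT tumours.

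**Figure D3:**
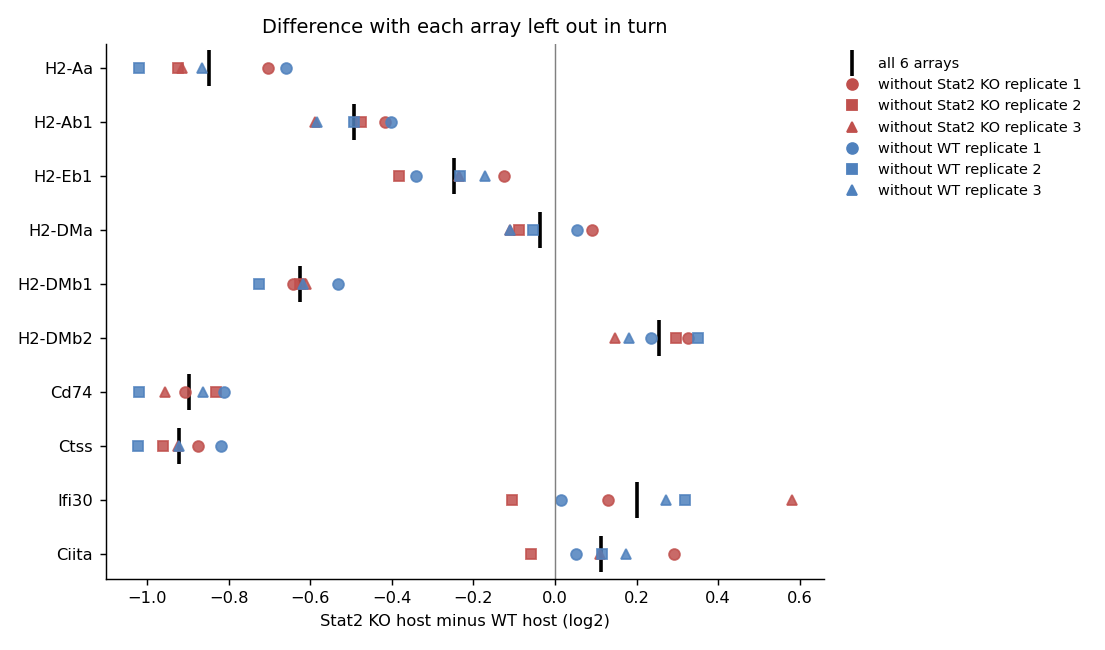
Stat2 KO host minus WT host difference (x axis, log2) of each gene with all 6 arrays (black bar) and with each array left out in turn (points). H2-Aa stayed between -1.02 and -0.66, Ctss between -1.02 and -0.82 and the Cd74 probe set between -1.02 and -0.81, whereas H2-DMa, Ifi30 and Ciita crossed 0.

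By the root mean square distance of centred log2 values over the 6 tumours, the genes outside the pathway and above the median level most like the mean pattern of H2-Aa, H2-Ab1 and H2-Eb1 were Tbc1d2, Paip2b, Il18, Tap1 and Rab10os. Dimmer genes were not ranked, although H2-Aa and H2-Eb1 themselves lie below that level (percentiles 26.6 and 45.1). The distances were 0.0995, 0.114, 0.115, 0.126 and 0.126 log2 units, beside 0.148 for H2-DMb1, 0.214 for Ctss and 0.362 for Ciita. H2-DMa lay at 0.255, H2-DMb2 at 0.433 and Ifi30 at 0.618. Of the chains that make the pattern, H2-Ab1 lay at 0.117, H2-Aa at 0.215 and H2-Eb1 at 0.223. H2-Aa and H2-Eb1 were thus farther from their mean pattern than all 5 named genes. Il18, which encodes the cytokine interleukin 18, read 6.39, 6.44 and 6.41 in the Stat2 KO and 7.02, 6.86 and 6.78 in the WT tumours. Tap1, a subunit of the peptide transporter of class I presentation, read 6.93, 7.33 and 7.07 against 7.50, 7.53 and 7.68. All 5 genes had groups that did not overlap, as their choice by likeness favours, and are given as a description.

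The remaining class II chains had groups that overlapped. H2-Oa and H2-Ob, which form an inhibitor of H2-DM, differed by 0.12 (SE 0.177) and 0.16 (SE 0.157), and H2-Eb2 by 0.11 (SE 0.145). Of the 4 chains measured, H2-Ea included, 4 were higher in Stat2 KO hosts and 0 passed at an unadjusted p under 0.05. All 4 lay below the median level, where 73.4% of genes were higher.

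Among 11 transcription factors of class II genes, 9 were lower and 2 higher, with a median of -0.12, and 10 of the 11 lay above the median level, where 65.3% of genes were lower. By unadjusted p under 0.05 the count was 1 lower and 0 higher, and 0 passed with adjustment. That gene was Irf4, a factor of dendritic cells, B cells and the melanocyte lineage, at 6.07 ± 0.212 in Stat2 KO and 6.71 ± 0.427 in WT tumours (n = 3 each), a difference of -0.64 (SE 0.200, limma adjusted p = 0.482). WT replicate 3 held 6.24, close to the 6.21 of Stat2 KO replicate 2. Nfyb, a subunit of the Y box factor NF-Y, differed by -0.30 (SE 0.151). Irf1, which takes part in the induction of Ciita by interferon gamma, differed by -0.24 (SE 0.162) and Irf8 by -0.19 (SE 0.146).

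Of the interferon gamma receptor chain, 6 of 7 genes had a probe set of their own, with 5 lower and 1 higher. Ifngr1, the ligand-binding receptor subunit, passed at an unadjusted p under 0.05, with 8.21, 8.05 and 7.86 in the Stat2 KO and 8.48, 8.55 and 8.27 in the WT tumours. Its difference was -0.39 (SE 0.145, limma adjusted p = 0.509). The kinase genes Jak1 and Jak2 differed by -0.24 (SE 0.153) and -0.17 (SE 0.160), and the feedback inhibitor Socs1 by -0.10 (SE 0.141).

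The lysosomal proteases of class II processing and their inhibitors were split, with 7 of 13 lower and 6 higher and a median of -0.19. At an unadjusted p under 0.05 there were 2 lower and 1 higher, and 0 passed with adjustment. Lgmn, an asparaginyl endopeptidase, read 8.85, 8.73 and 8.72 in the Stat2 KO and 9.36, 9.41 and 9.05 in the WT tumours, a difference of -0.51 (SE 0.142, limma adjusted p = 0.460). Ctsh, cathepsin H, differed by -0.38 (SE 0.164, limma adjusted p = 0.547). Cst3, the cysteine protease inhibitor cystatin C, was higher, with 9.48, 9.14 and 9.32 in the Stat2 KO and 9.08, 8.89 and 9.01 in the WT tumours, a difference of 0.32 (SE 0.140, limma adjusted p = 0.551). Ctsf, cathepsin F, differed by 0.29 (SE 0.141).

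The ubiquitin ligase genes Marchf1 and Marchf8, which remove class II from the surface, differed by 0.14 (SE 0.132) and -0.20 (SE 0.180). Cd83, which opposes Marchf1, differed by -0.15 (SE 0.129). Cd4 and Lag3, receptors of T cells that bind class II, differed by 0.062 (SE 0.149) and 0.24 (SE 0.139). Of these 5 genes 0 passed at an unadjusted p under 0.05.

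All 12 macrophage markers had lower values in Stat2 KO hosts, also under the 3 further normalizations, with 5 of them at an unadjusted p under 0.05 and 0 with adjustment. Their median difference was -0.30, and 7 of the 12 lay below the median level. Their mean level was 6.33, 6.42 and 6.55 in Stat2 KO and 6.88, 6.91 and 6.67 in WT tumours, so the groups did not overlap. This was not particular to macrophage markers. Mean levels of the class II transcription factors were 7.14 to 7.23 in Stat2 KO and 7.29 to 7.39 in WT tumours. Those of the interferon gamma receptor chain were 7.59 to 7.77 and 7.79 to 7.905. C1qb, a chain of complement C1q, read 6.22, 6.55 and 6.54 against 7.46, 7.59 and 7.10 (difference -0.95, SE 0.162, limma adjusted p = 0.195). The membrane protein gene Ms4a7 differed by -0.83, Cd68 by -0.61 and C1qc by -0.49. The fifth was the lysozyme gene Lyz2 (-0.57, groups overlapping), named after its values were seen. Of these 12 markers 5 had a mean above 6.72.

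Dendritic cell markers had higher values in 9 of 10, and in 7 of 10 after median centring or cyclic loess. Their median difference of 0.097 was near the 0.11 of all genes at or below the median level, where 7 of the 10 lay. Of them 1 (Clec10a, 0.62, SE 0.172, limma adjusted p = 0.460) passed at an unadjusted p under 0.05. Their mean level ranged from 6.17 to 6.43 in Stat2 KO and from 6.10 to 6.30 in WT tumours, which overlap. Xcr1, Flt3 and Zbtb46 differed by 0.39, 0.20 and 0.17. B cell markers, all below the median level, had higher values in 6 of 8 with 0 passing and a median of 0.10, and their levels, 5.66 to 5.86 and 5.63 to 5.75, overlapped. Above the olfactory receptor level of 6.72 stood 1 of 10 dendritic cell markers (Cd209a, the lower one at -0.12, named after its values were seen) and 0 of 8 B cell markers, so most markers of both cell types were not shown to read above background. Ptprc, which marks all leukocytes, read 5.53 ± 0.329 in Stat2 KO and 5.87 ± 0.185 in WT tumours (n = 3 each). The difference was -0.35 (SE 0.178, limma adjusted p = 0.598), its groups overlapped, and both means lay below 6.72. In whole tumours fewer cells of a type and less RNA per cell cannot be told apart, and the part of macrophage content in the lower class II values was not tested.

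**Figure D4:**
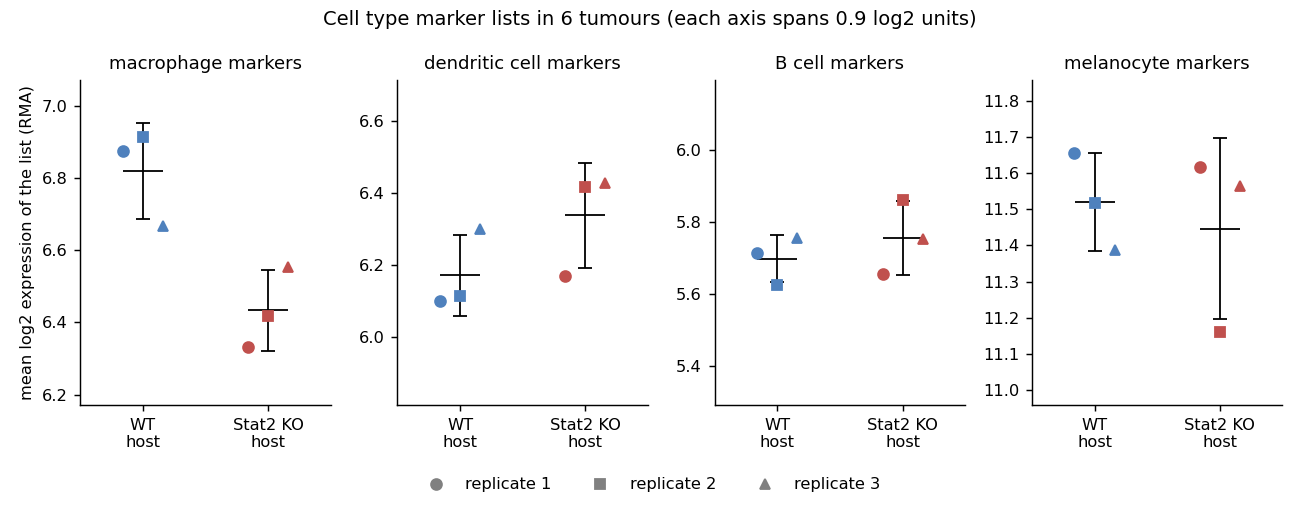
Mean log2 expression (y axis) of the macrophage, dendritic cell, B cell and melanocyte marker lists in each tumour, with group mean and SD (n = 3 per group) and an axis of 0.9 log2 units in each panel. The groups are apart for the macrophage markers and overlap for the other lists plotted here.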

How the data were processed

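Total RNA of 6 tumours was hybridized to Affymetrix arrays, 1 per tumour. Deposited are log2 values for each probe set. The submitters' processing notes name RMA in Affymetrix Expression Console 1.3.1, and a genome build is not stated there. The number of arrays limits the precision, and scan dates and detection calls were not used here. The brightest probe set that names a gene alone stood for it, without a filter. The platform annotation gives 1 gene for 23521 probe sets, several for 1814 and none for 16010.

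Groups were compared with limma 3.58.1 in R 4.3.3 (lmFit, eBayes with intensity trend), two-sided, with Benjamini-Hochberg adjustment over 22180 genes. The Cd74 probe set names more than 1 gene, so it was taken from the same fit over all 41345 probe sets. For single values an exact permutation test over the 6 arrays was used, two-sided. The procedure was tested on simulated data. All 10 members were named, up to 4 genes of each other list by smallest p, every gene of lists with 5 or fewer, and the 5 genes above the median level closest to the classical chains. Members and lists were chosen with earlier results of these data known. Promoters were searched in Python 3.11.15. Alternatives were a replicate block, 3 further normalizations, other probe set choices, other limma settings and each array left out.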

Additional observations from a re-analysis of the deposited data

How the results depend on the processing

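Members past the adjusted threshold numbered 0 under every alternative but array weights, where it was 1 (Ctss), with 257 genes passing in all. Members lower at an unadjusted p under 0.05 numbered 4 or 5, except 2 among genes brighter than the median gene, where 4 of 9 were tested. Without each array in turn the median difference of the members ranged from -0.38 (without Stat2 KO replicate 2) to -0.12 (without Stat2 KO replicate 1), and the count of genes passing from 0 to 17 (without WT replicate 3). Omitting any of Stat2 KO replicates 1 and 2 and WT replicate 1 left 0 genes, and omitting Stat2 KO replicate 3 or WT replicate 2 left 1. The sign turned with array weights for H2-DMa (0.045) and Ifi30 (-0.29). With single arrays omitted, H2-DMa ranged from -0.11 to 0.090, Ifi30 from -0.10 to 0.58 and Ciita from -0.059 to 0.29. The cause was not tested. H2-Aa, H2-Ab1, H2-Eb1, H2-DMb1, Ctss and the Cd74 probe set were lower, and H2-DMb2 higher, under each alternative that gave a value. The replicate block, the probe set choices, the limit to brighter genes and eBayes without trend or robust could not change a difference. Only array weights, the further normalizations and the omitted arrays could turn a sign. Further quantile normalization, median centring and cyclic loess turned no member's sign. With the replicate number as a block the count of genes passing was 3 in place of 2, and members passing stayed at 0. Same-numbered tumours had correlated deviations of 0.24, 0.079 and 0.030, and 1 of 3 Stat2 KO and 2 of 3 WT tumours correlated best with their own number, so the numbers were not taken to pair tumours. Signal near background limits H2-Aa, H2-DMb1 and H2-DMb2 most. The means of H2-Ab1, H2-Eb1, H2-DMa and Ciita also lay below the olfactory receptor level of 6.72. So did every Stat2 KO value of the Cd74 probe set, and the sizes of these differences are uncertain too.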
